A study of Mus musculus with 10 samples.

Results

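The proteasome subunit genes of mouse were taken as all genes whose symbol is Psma, Psmb, Psmc, Psmd, Psme, Psmf or Psmg with a number, leaving out Psmb8 and Psmb9, which are made in place of standard subunits after interferon. The array measured 46 such genes among 19965 genes with a symbol: 17 of the core particle (Psma and Psmb), 20 of the regulatory particle (Psmc and Psmd) and 9 others, namely 4 activators, 1 inhibitor and 4 chaperones of core assembly. Where a gene had several probe sets, the brightest stood for it. Their messenger RNA was measured on 10 Affymetrix Mouse Gene ST arrays in cells sorted from hippocampi, dissociated with papain, of mice heterozygous for Sox1-GFP. Green fluorescent protein (GFP) reports the activity of Sox1, a gene of neural stem and progenitor cells, and the positive gate took cells with high GFP. Old mice, aged 1 year 9 months, gave 4 GFP-positive samples. Young mice gave 3 GFP-positive samples (replicate 1 aged 7 months, replicate 2 aged 5, replicate 3 aged 4) and 3 GFP-negative samples (replicates 1 and 2 aged 7 months, replicate 3 aged 4). No animal was treated, and all groups carried the reporter. GFP-negative samples of old mice were not analysed here, so the age comparison is of GFP-positive cells alone. The titles call the samples biological replicates, and do not state whether a positive and a negative sample came from the same mouse. The young samples numbered 2 differ in age, at 5 and 7 months, so they did not share a mouse.

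The proteasome degrades proteins that carry a chain of ubiquitin. Its core particle is a barrel of stacked rings: outer rings of alpha subunits gate the entrance, and inner rings of beta subunits hold the peptide-cutting sites. The regulatory particle caps the barrel, and its ring of ATPases (Psmc) unfolds the substrate, while its other subunits (Psmd) bind ubiquitin, remove it or hold the lid together. Activators (Psme) can cap the core in its place, and dedicated chaperones (Psmg for the core, Psmd5, Psmd9 and Psmd10 for the ATPase base) help in assembly. In neural stem cells of mice, activated cells are known for high proteasome activity, and quiescent cells for large lysosomes.

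All values are log2 values after Robust Multichip Average (RMA), a difference is a log2 difference between group means, and SE is its moderated standard error in limma. The array medians lay between 6.54 and 6.67, and arrays of a group correlated across genes with r between 0.967 and 0.986. The sort was visible in the marker lists: 7 of 8 astrocyte genes and 4 of 8 stem and progenitor genes were higher in young GFP-positive samples than in young GFP-negative samples (limma, adjusted p under 0.05), and all 10 microglia, all 8 mature oligodendrocyte and all 7 endothelial genes were lower. Sox1 itself averaged 7.48 in young GFP-positive and 7.20 in young GFP-negative samples, 0.28 apart (limma, adjusted p = 0.123). Some samples stood apart. Old replicate 3 had 11.90 for Xist, an RNA of female cells, and 5.32 for the Y-linked Ddx3y, while the other 9 samples lay between 4.95 and 5.69 for Xist and between 9.15 and 9.83 for Ddx3y. The mean of 6 choroid plexus genes was 8.43 in young GFP-positive replicate 1 and 8.45 in young GFP-negative replicate 1, against 5.42 to 6.15 in the other 8 samples. The mean of 4 immature neuron genes was 8.83 in young GFP-positive replicate 3, against 6.57 to 7.15 elsewhere. Counts and medians of the core and regulatory genes that moved by over 1.5 times without these samples are also given without them.

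Promoter sequences from RefSeq (assembly GRCm38.p6) were found for 38 of the 46 genes. The motif TGACNNNGC or TGAGNNNGC, the core of the antioxidant response element that NFE2L1 and NFE2L2 bind, stood on either strand of the RefSeq promoter entry, which runs from before the start to shortly after it, in 16 of these 38 promoters (42.1%), against 33.0% of all 15536 gene promoters searched. By particle it stood in 7 of 13 core promoters (53.8%) and 7 of 17 regulatory promoters (41.2%). The ETS-type motif CCGGAAG stood in 14 of 38 (36.8%), against 13.7% of all promoters, and this count held 9 of 17 regulatory genes but 1 of 13 core genes, Psma6. A CCAAT box stood in 13 of 38 (34.2%, against 42.1% of all), with 7 of 13 core promoters (53.8%) and 5 of 17 regulatory promoters (29.4%). GCGGAAG stood in 9 of 38 (23.7%, against 9.31%), GCGCATGC in 3 (7.89%, against 4.26%) and AAGATGGC in 3 (7.89%, against 3.82%). A match is a string of letters and no sign of binding. CCGGAAG and GCGGAAG differ in their first letter, so that 1 site on 1 strand matches one of them at most. The windows of 200 bases before the annotated start are shown for 2 catalytic core genes, Psmb5 (chr14:54617996-54618195, minus strand) and Psmb6 (chr11:70525157-70525356, plus strand), with the antioxidant-type motif in capitals, and for 2 regulatory genes, Psmd4 (chr3:95042615-95042814, minus strand) and Psmd6 (chr14:14120946-14121145, minus strand), with the ETS-type motif in capitals. These 4 genes are shown because their old values lay wholly below the young GFP-positive values, with 1 motif class for each particle. The motif begins 47 bases before the start in Psmb5, 9 in Psmb6, 125 in Psmd4 and 45 in Psmd6. Matches to the other motifs are left in lower case.
Psmb5: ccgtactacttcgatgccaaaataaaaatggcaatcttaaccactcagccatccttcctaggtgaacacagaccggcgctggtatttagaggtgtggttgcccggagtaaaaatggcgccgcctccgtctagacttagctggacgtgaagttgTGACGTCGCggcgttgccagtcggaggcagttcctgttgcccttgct
Psmb6: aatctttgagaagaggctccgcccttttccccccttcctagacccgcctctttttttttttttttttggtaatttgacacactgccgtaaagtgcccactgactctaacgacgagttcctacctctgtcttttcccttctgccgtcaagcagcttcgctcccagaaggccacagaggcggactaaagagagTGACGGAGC
Psmd4: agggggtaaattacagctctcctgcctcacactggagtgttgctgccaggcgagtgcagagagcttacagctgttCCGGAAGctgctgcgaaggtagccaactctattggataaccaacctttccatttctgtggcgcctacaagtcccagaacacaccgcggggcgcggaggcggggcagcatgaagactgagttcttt
Psmd6: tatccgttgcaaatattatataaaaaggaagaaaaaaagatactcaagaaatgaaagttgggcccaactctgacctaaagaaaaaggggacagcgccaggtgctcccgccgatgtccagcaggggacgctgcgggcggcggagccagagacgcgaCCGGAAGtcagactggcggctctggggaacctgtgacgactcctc

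The age comparison, which the series description names, set GFP-positive cells of old mice against those of young mice. Of the proteasome genes, 41 of 46 (89.1%) had a lower mean in old mice than in young mice, but no single gene passed the test. A lower mean was found in 39.6% of all genes and in 60.4% of the 6655 brightest genes. The median difference over the 46 genes was -0.35, against 0.05 over all genes and -0.06 over the 6655 brightest genes, which held 37 of the 46. The core particle had a median of -0.49 and the regulatory particle of -0.25, and the difference between these medians was not tested. In limma's test 0 of 46 genes had an adjusted p under 0.05 (smallest 0.22, Psmb2), in a comparison where 3 of 19965 genes did (0.015%). At an unadjusted p under 0.05, 22 genes were lower, where 5.46% of all genes were, and 1 was higher, where 4.7% were. Among the 6655 brightest genes 775 were lower and 203 higher, beside 21 and 0 of the 37 proteasome genes in that range. Fewer cells of a type and less RNA per cell cannot be told apart in these sorted samples.

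The groups were also compared by complete separation. In 14 of 46 genes (30.4%) every old value lay below every young GFP-positive value, where 4.06% of all genes did so. Among the 6655 brightest genes 8.64% did so, beside 13 of the 37 proteasome genes in that range (35.1%). The 14 genes were Psma1, Psma5, Psma6, Psma7, Psmb1, Psmb2, Psmb5, Psmb6 and Psmb7 of the core and Psmc4, Psmd3, Psmd4, Psmd6 and Psmd14 of the regulatory particle. These 9 of 17 core genes (52.9%) and 5 of 20 regulatory genes (25%) compare with 0 of the 9 activators, inhibitor and core chaperones. Psmb11 alone lay wholly above (6.85% of all genes did). Without old replicate 3 the count was 16, and without young GFP-positive replicate 3, the sample high in immature neuron genes, it was 24 (52.2%, where 8.54% of all genes then separated). These 24 held 14 core and 8 regulatory genes.

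**Figure D1:**
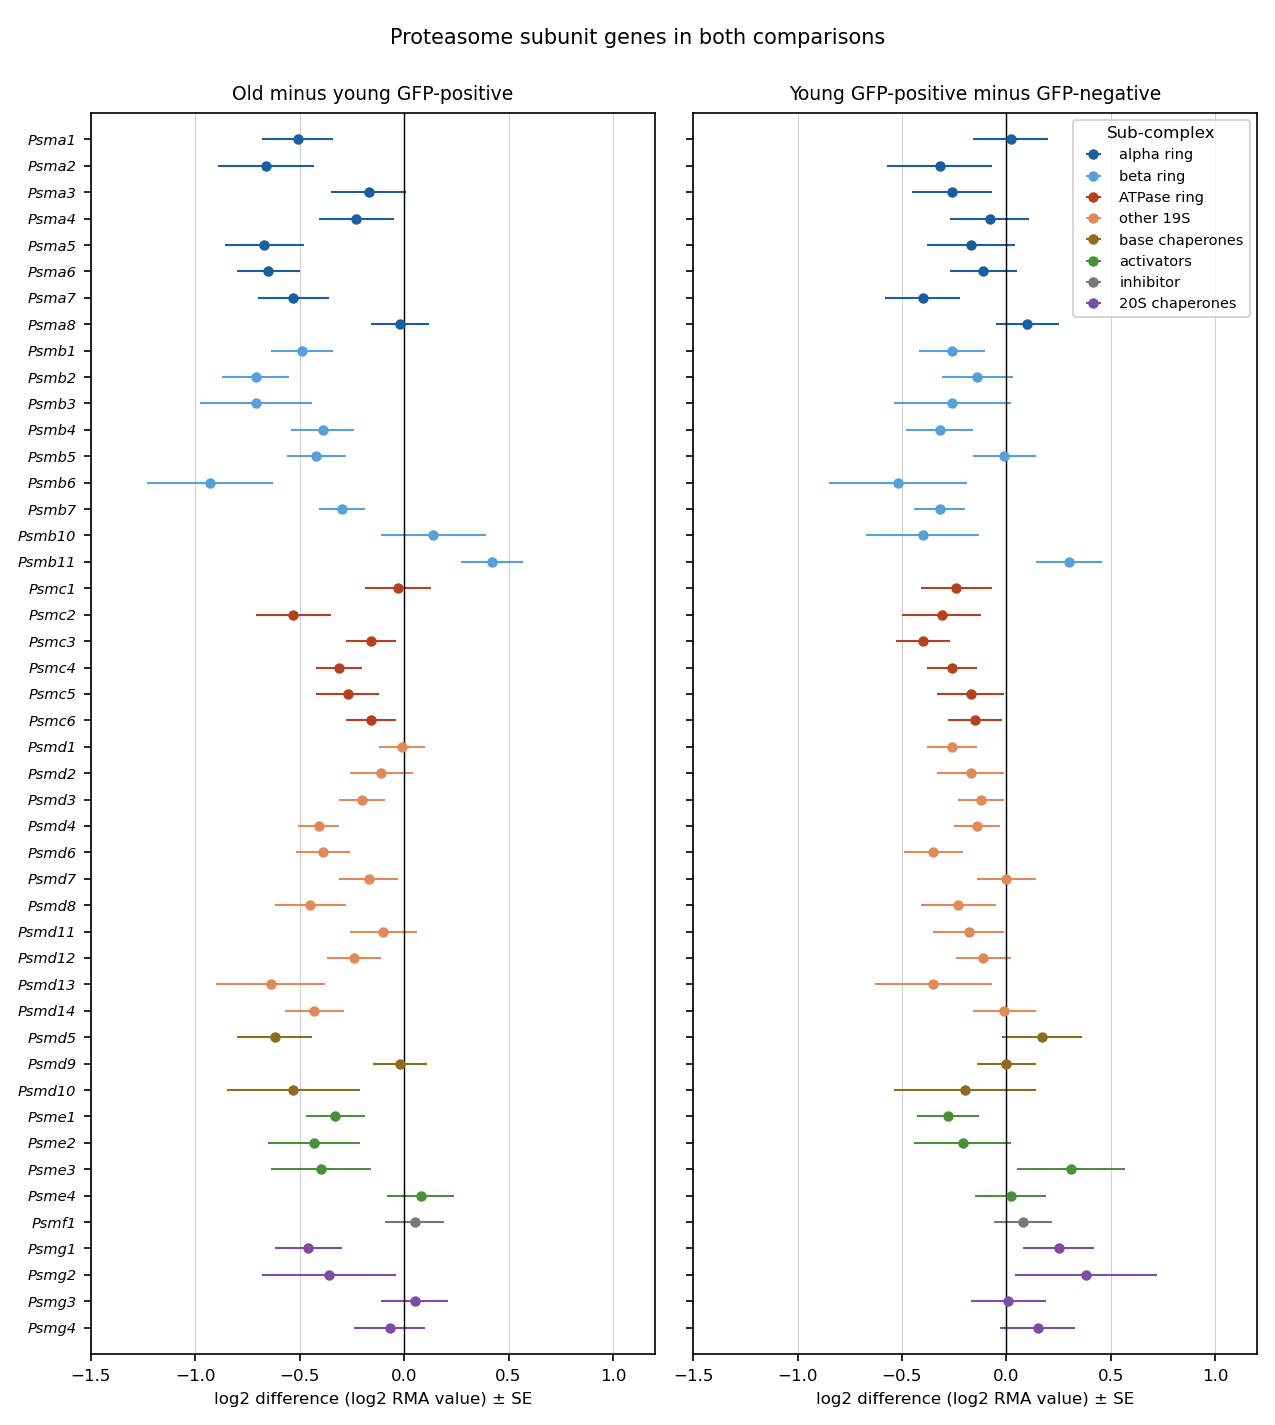
Log2 differences with their standard errors for the 46 proteasome genes, coloured by sub-complex, for old minus young GFP-positive samples on the left and young GFP-positive minus young GFP-negative samples on the right. On the left 41 of 46 points lie below 0 with a median of -0.35, and on the right 33 of 46 with a median of -0.17, although no gene passed the test on either side.

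The sort comparison set the GFP-positive cells of young mice against the GFP-negative cells of young mice. Here 33 of the 46 genes (71.7%) had a lower mean in young GFP-positive than in young GFP-negative samples, where 37.8% of all genes and 53.2% of the brightest genes did. The median was -0.17, against 0.10 over all genes and -0.03 over the brightest genes. The core median was -0.26, the regulatory median -0.18, and the 9 remaining genes had a median of 0.08. No gene passed (limma, smallest adjusted p = 0.0598, Psmc3), although 17% of all genes passed in this comparison. At an unadjusted p under 0.05, 4 genes were lower (Psma7, Psmb7, Psmc3 and Psmd6) and 0 were higher, where 14.2% and 16.1% of all genes were. Both shares of the proteasome genes were below these backgrounds.

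All young GFP-positive values lay below all young GFP-negative values in 12 of 46 genes (26.1%), where 15% of all genes did so, and 0 of 46 lay wholly above, where 23.9% did. Among the brightest genes the background was 23.6%, beside 12 of 37 proteasome genes (32.4%). The 12 were Psma2, Psma7, Psmb1, Psmb4, Psmb6, Psmb7, Psmc3, Psmc4, Psmd1, Psmd6, Psmd12 and Psme1. In Psmd12 and Psme1 the separation was smaller than the rounding, with 9.26 and 9.72 on both sides. Without young GFP-positive replicate 1 the count was 17 (37%, where 17.6% of all genes then separated). Of these 17, 7 were of the core and 9 of the regulatory particle. With the array medians set equal, the count fell to 10 (21.7%, where 14.8% of all genes separated). The core median in the sort was -0.13 without the replicate 1 samples of both young fractions, -0.08 without young GFP-negative replicate 1 alone, the sample with the highest core mean, and -0.13 without young GFP-positive replicate 3. The regulatory median was -0.12 without both replicate 1 samples and -0.10 without young GFP-positive replicate 3. The young GFP-positive samples enter both comparisons, so the age and sort differences are not independent of each other, and they are given side by side for each gene.

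The alpha ring, whose subunits form the gated ends of the core, had 8 negative age differences of 8, with a median of -0.52. Psma6 had 9.99, 10.11, 9.48 and 10.09 in old GFP-positive samples, 10.47, 10.63 and 10.60 in young GFP-positive samples, and 10.74, 10.56 and 10.73 in young GFP-negative samples. Its old samples were all below its young ones, with replicate 3 the lowest, and the young fractions overlapped. The age difference was -0.65 (SE 0.15, limma, adjusted p = 0.233) and the sort difference -0.11 (SE 0.16, adjusted p = 0.654). Psma7 had 9.82, 9.18, 9.21 and 9.66 in old GFP-positive samples, 10.01, 10.09 and 9.90 in young GFP-positive samples, and 10.53, 10.23 and 10.45 in young GFP-negative samples. The 3 groups did not overlap and stood in the order old, young positive, young negative. The age difference of Psma7 was -0.53 (SE 0.17, limma, adjusted p = 0.336) and its sort difference -0.40 (SE 0.18, adjusted p = 0.152). Psma8, an alpha subunit known from testis, was dim, at 5.27 ± 0.09 in old (SD, n = 4) and 5.29 ± 0.28 in young GFP-positive samples (SD, n = 3), a difference of -0.02. The other 5 alpha genes had age differences between -0.67 (Psma5) and -0.17 (Psma3).

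The beta ring holds the catalytic sites, and 7 of its 9 genes had negative age differences, with a median of -0.42. Psmb5, which carries the chymotrypsin-like site, had 7.61, 7.20, 7.63 and 7.58 in old GFP-positive samples, 8.03, 7.73 and 8.02 in young GFP-positive samples, and 7.81, 7.86 and 8.14 in young GFP-negative samples. Old samples lay wholly below young ones, and the young fractions overlapped. The age difference was -0.42 (SE 0.14, limma, adjusted p = 0.381), and the sort difference was -0.01 (SE 0.15, adjusted p = 0.963). Psmb6, with the caspase-like site, had 7.76, 9.25, 8.55 and 9.11 in old GFP-positive samples, 9.57, 9.84 and 9.38 in young GFP-positive samples, and 10.41, 9.90 and 10.04 in young GFP-negative samples. The groups did not overlap, but the old samples spread widely (SD 0.68), with replicate 1 lowest. Psmb6 had the most negative age difference of the 46 genes, -0.93 (SE 0.30, limma, adjusted p = 0.37), and a sort difference of -0.52 (SE 0.33, adjusted p = 0.305).

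Psmb7, with the trypsin-like site, had 9.26, 9.38, 9.33 and 9.34 in old GFP-positive samples, 9.38, 9.73 and 9.77 in young GFP-positive samples, and 10.01, 9.87 and 9.96 in young GFP-negative samples. Its old samples were tightly grouped, and the highest of them was below young replicate 1 by less than the rounding. The age difference was -0.30 (SE 0.11, limma, adjusted p = 0.424) and the sort difference -0.32 (SE 0.12, adjusted p = 0.107). Psmb2, a beta subunit without a catalytic site, had the smallest adjusted p of the age comparison, with 8.04, 8.71, 8.42 and 8.62 in old GFP-positive samples, 9.30, 9.11 and 9.07 in young GFP-positive samples, and 9.45, 9.12 and 9.30 in young GFP-negative samples. Every old value was below every young one, while the young fractions overlapped. Psmb2 differed by -0.71 with age (SE 0.16, limma, adjusted p = 0.22) and by -0.14 in the sort (SE 0.17, adjusted p = 0.608).

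With all samples, the 2 positive age differences of the core were those of Psmb10 and Psmb11, beta subunits that are not part of the standard barrel, and that of Psmb10 rested on single samples. Psmb10, which takes the place of Psmb7 in the immunoproteasome, had 6.65, 7.41, 7.42 and 7.70 in old GFP-positive samples, 6.66, 7.52 and 7.29 in young GFP-positive samples, and 7.72, 7.47 and 7.49 in young GFP-negative samples. Replicate 1 was low in both GFP-positive groups, and all groups overlapped (age difference 0.14, SE 0.25, limma, adjusted p = 0.839, and sort difference -0.40, SE 0.27, adjusted p = 0.325). The age difference of Psmb10 was -0.11 without young GFP-positive replicate 1 and 0.00 without old replicate 4. Psmb11, the subunit of the thymus proteasome, was dim, with 6.85, 6.58, 6.69 and 6.46 in old GFP-positive samples, 6.13, 6.12 and 6.42 in young GFP-positive samples, and 5.75, 5.81 and 6.22 in young GFP-negative samples. Its old values lay wholly above its young GFP-positive values, by 0.42 on average (limma, adjusted p = 0.398). No background level was at hand to say whether it was detected. The same limit holds for genes lower in old mice at similar levels, such as Psma3 and Psmd5, with old means of 6.6 and 6.51. Leaving out Psma8, Psmb10 and Psmb11, all 14 standard core genes had negative age differences, with a median of -0.52, and 9 of them separated wholly.

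**Figure D2:**
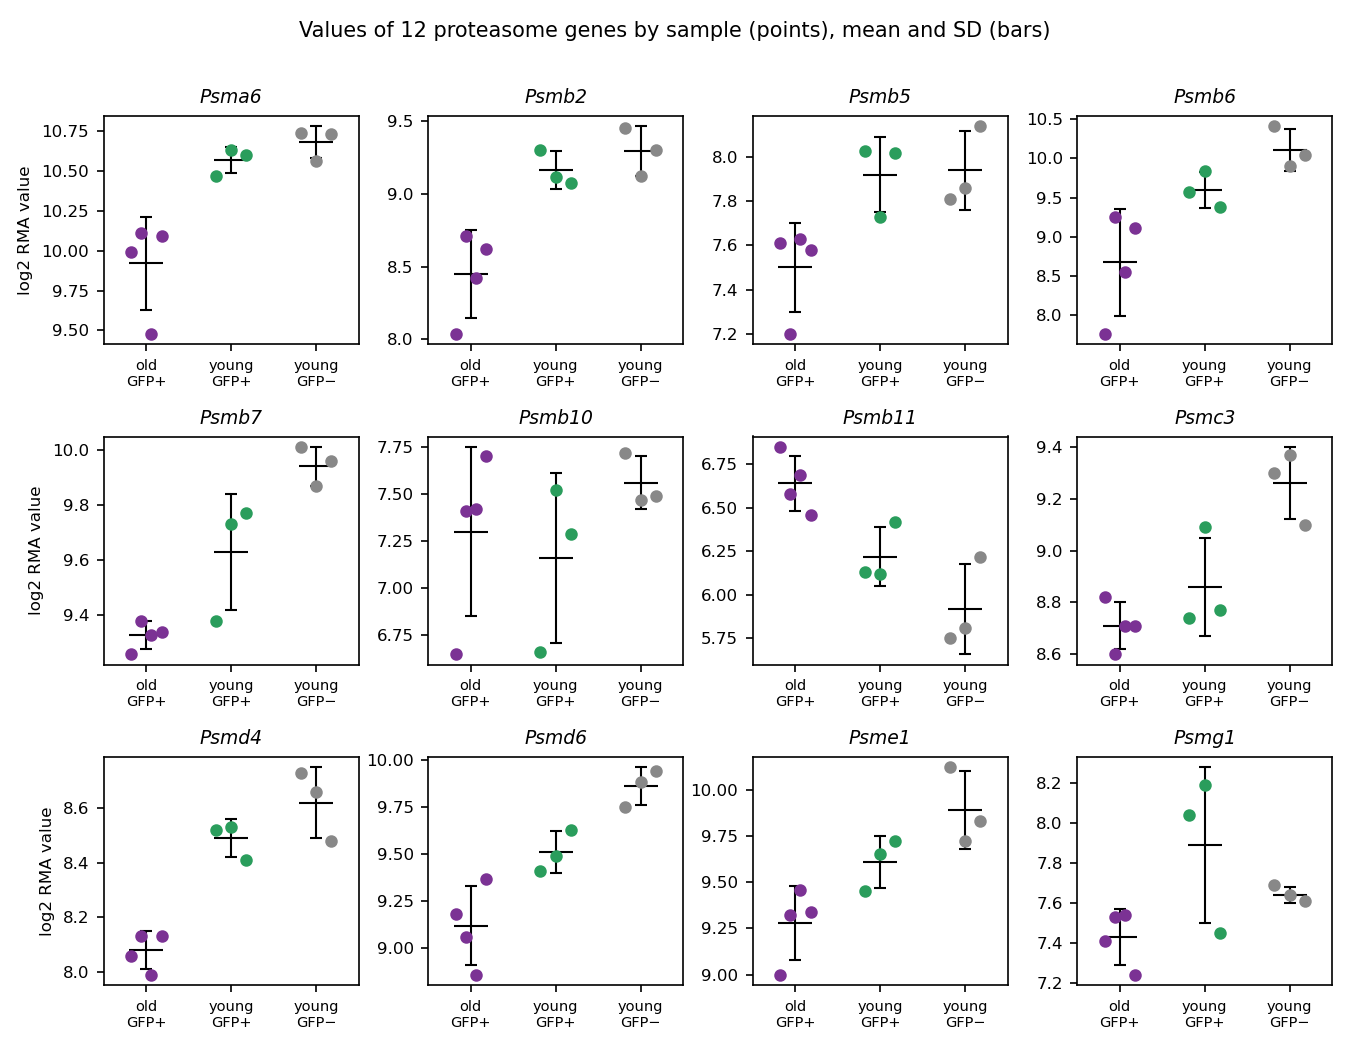
Log2 RMA values of 12 proteasome genes in the old GFP-positive (n = 4), young GFP-positive (n = 3) and young GFP-negative (n = 3) samples, with a point per sample and bars for the mean and SD. The vertical axes differ between genes and do not start at 0; the old points lie below the young GFP-positive points in Psma6, Psmb2, Psmb5, Psmb6, Psmb7, Psmd4 and Psmd6, and above them in Psmb11.

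The ATPase ring of the regulatory particle, which unfolds substrates, had negative differences for all 6 genes in both comparisons, with medians of -0.21 for age and -0.25 for the sort. Psmc2 had 8.03, 7.74, 8.61 and 8.15 in old GFP-positive samples, 8.84, 8.58 and 8.59 in young GFP-positive samples, and 9.07, 9.07 and 8.80 in young GFP-negative samples. Old replicate 3 was inside the young range and the other 3 old samples were below it (age difference -0.53, SE 0.18, limma, adjusted p = 0.381, and sort difference -0.31, SE 0.19, adjusted p = 0.298). Psmc3 had 8.82, 8.60, 8.71 and 8.71 in old GFP-positive samples, 8.74, 9.09 and 8.77 in young GFP-positive samples, and 9.30, 9.37 and 9.10 in young GFP-negative samples. Here the old and young GFP-positive samples overlapped, and both lay below the GFP-negative samples. Psmc3 differed by -0.16 with age (SE 0.12, limma, adjusted p = 0.647) and by -0.40 in the sort (SE 0.13, adjusted p = 0.0598). The sort difference of Psmc3 passed when replicate 2 was left out of the young GFP-positive samples, or replicate 3 out of the young GFP-negative ones (limma, adjusted p = 0.0299 and 0.0405) and with array weights (0.0165), and over all alternatives its adjusted p lay between 0.0165 and 0.357. Of the other 4 ATPases only Psmc4 separated wholly in both comparisons, with 8.27 ± 0.13 in old (SD, n = 4), 8.58 ± 0.07 in young GFP-positive (SD, n = 3) and 8.84 ± 0.14 in young GFP-negative samples (SD, n = 3).

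Among the 11 other subunits of the regulatory particle, all age differences were negative, between -0.64 (Psmd13) and -0.01 (Psmd1). Psmd4, a ubiquitin receptor, had 8.06, 8.13, 7.99 and 8.13 in old GFP-positive samples, 8.52, 8.53 and 8.41 in young GFP-positive samples, and 8.73, 8.66 and 8.48 in young GFP-negative samples. The old samples lay together below all young ones, and the young fractions overlapped. Psmd4 differed by -0.41 with age (SE 0.10, limma, adjusted p = 0.252) and by -0.14 in the sort (SE 0.11, adjusted p = 0.407). Psmd6, a scaffold subunit of the lid, had 9.18, 9.06, 8.86 and 9.37 in old GFP-positive samples, 9.41, 9.49 and 9.63 in young GFP-positive samples, and 9.75, 9.88 and 9.94 in young GFP-negative samples. The 3 groups of Psmd6 did not overlap, with an age difference of -0.39 (SE 0.13, limma, adjusted p = 0.371) and a sort difference of -0.35 (SE 0.14, adjusted p = 0.118). Psmd14, the subunit that cuts ubiquitin off the substrate, averaged 9.12 ± 0.21 in old (SD, n = 4) and 9.56 ± 0.21 in young GFP-positive samples (SD, n = 3), and differed by -0.01 in the sort. The large scaffold subunits Psmd1 and Psmd2 differed with age by -0.01 and -0.11, within the spread of their samples.

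The base chaperones stood apart from each other: Psmd5 and Psmd10 had age differences of -0.62 and -0.53 and Psmd9 of -0.02. Psmd5 had 6.55, 6.30, 6.35 and 6.85 in old GFP-positive samples, 7.45, 6.73 and 7.21 in young GFP-positive samples, and 7.01, 6.86 and 7.01 in young GFP-negative samples. Old replicate 4 lay above young GFP-positive replicate 2, and the other old samples lay below all young ones (age difference SE 0.18, limma, adjusted p = 0.301, and sort difference 0.17, SE 0.19, adjusted p = 0.566). Psmd10 varied most among the young GFP-positive samples, at 9.70, 8.89 and 8.30 (SD 0.70), and its old samples, at 8.37, 8.73, 7.77 and 8.87, overlapped with them.

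The activators, the inhibitor and the core chaperones had no gene that separated wholly with age. Psme1, a subunit of the interferon-inducible cap, had 9.00, 9.32, 9.46 and 9.34 in old GFP-positive samples, 9.45, 9.65 and 9.72 in young GFP-positive samples, and 10.12, 9.72 and 9.83 in young GFP-negative samples. Old replicate 3 lay just above young GFP-positive replicate 1, and the other old samples lay below all young ones (difference -0.33, SE 0.14, limma, adjusted p = 0.473, and sort difference -0.28, SE 0.15, adjusted p = 0.232). Psme2, its partner in that cap, had 7.88, 7.18, 7.34 and 7.44 in old GFP-positive samples, 8.16, 7.96 and 7.55 in young GFP-positive samples, and 8.49, 8.08 and 7.73 in young GFP-negative samples. Old replicate 1 was inside the young range (difference -0.43, SE 0.22, limma, adjusted p = 0.521, and sort difference -0.21, SE 0.23, adjusted p = 0.55). Psmf1, an inhibitor of the core, averaged 7.05 ± 0.26 in old (SD, n = 4), 7.00 ± 0.06 in young GFP-positive (SD, n = 3) and 6.92 ± 0.04 in young GFP-negative samples (SD, n = 3), with differences of 0.05 and 0.08 (limma, adjusted p = 0.892 and 0.713).

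The 4 core chaperones had positive sort differences throughout, between 0.01 (Psmg3) and 0.38 (Psmg2), with a median of 0.20. Psmg1 had 7.41, 7.53, 7.54 and 7.24 in old GFP-positive samples, 8.04, 8.19 and 7.45 in young GFP-positive samples, and 7.69, 7.64 and 7.61 in young GFP-negative samples. Young GFP-positive replicates 1 and 2 were the highest of the 10 samples, and replicate 3 lay in the range of the old ones (age difference -0.46, SE 0.16, limma, adjusted p = 0.405, and sort difference 0.25, SE 0.17, adjusted p = 0.348). Leaving out young GFP-positive replicate 3 gave Psmg1 a sort difference of 0.47, which passed (limma, adjusted p = 0.0354, with a range over all alternatives of 0.0354 to 0.72).

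Sample by sample, the mean deviation of the core genes from their own 10-sample means was -0.35, -0.28, -0.43 and -0.13 in old GFP-positive replicates 1 to 4, 0.12, 0.15 and 0.04 in young GFP-positive replicates 1 to 3, and 0.39, 0.14 and 0.35 in young GFP-negative replicates 1 to 3. All old samples were below all young ones. For the regulatory particle the values were -0.17, -0.28, -0.36 and -0.09 in old GFP-positive, 0.11, 0.12 and -0.05 in young GFP-positive, and 0.31, 0.24 and 0.16 in young GFP-negative samples. The old samples again lay below the young ones, with old replicate 4 and young GFP-positive replicate 3 the nearest neighbours. Old replicate 3, the sample with the female pattern, was the lowest old sample in 18 of 46 genes (in 19% of all genes), and replicate 4 in 3 (in 35.6% of all genes). Without old replicate 3 the core median with age was -0.41 and the regulatory median -0.20, with 39 of 46 differences negative. The median SD of a proteasome gene was 0.25 among old, 0.17 among young GFP-positive and 0.16 among young GFP-negative samples, where it was 0.18, 0.16 and 0.16 over all genes.

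**Figure D3:**
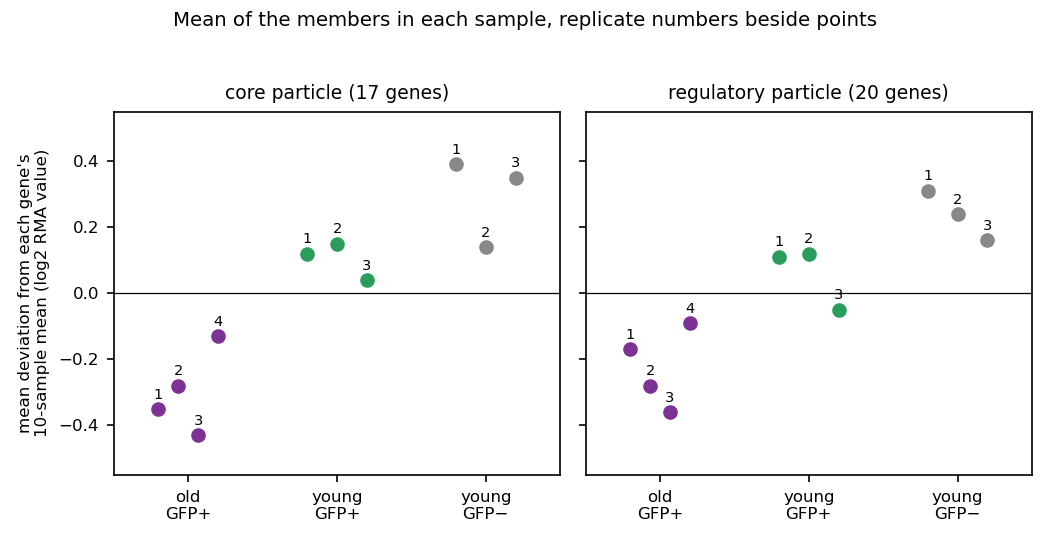
Mean deviation of the 17 core genes and the 20 regulatory genes from each gene's mean over the 10 samples (log2 RMA value), 1 point per sample with its replicate number. The old GFP-positive samples lie between -0.43 and -0.13 for the core, below the young GFP-positive samples at 0.04 to 0.15, and young GFP-negative samples reach 0.39.

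Other genes of the pathway gave mixed values. Of 36 listed, 33 were measured, and 0 passed the age test (limma; at an unadjusted p under 0.05, 2 were higher and 5 lower), with a median of -0.08. The most negative were genes that build the particle: Pomp, the chaperone that matures the core, had 9.68, 9.38, 8.95 and 9.67 in old GFP-positive samples, against 10.27, 10.05 and 10.12 in young GFP-positive samples (difference -0.73, limma, adjusted p = 0.252). Sem1, a small lid subunit, had 9.28, 8.76, 8.54 and 9.35 in old GFP-positive samples, against 9.39, 10.02 and 9.64 in young GFP-positive samples (difference -0.70, limma, adjusted p = 0.33). Both separated wholly, and they were chosen for mention after their values were seen. Nfe2l1 and Nfe2l2, the transcription factors that bind the antioxidant-type motif, had age differences of 0.09 and 0.08 (limma, adjusted p = 0.911 and 0.881).

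The immunoproteasome subunits outside the rule had positive age differences, neither of which passed. Psmb8 had 6.96, 6.65, 7.09 and 6.49 in old GFP-positive samples, against 6.12, 6.46 and 6.35 in young GFP-positive samples, wholly above them (difference 0.49, limma, adjusted p = 0.486). Psmb9 had 8.45, 7.84, 7.27 and 7.45 in old GFP-positive samples, against 7.08, 7.48 and 7.93 in young GFP-positive samples, with overlap (difference 0.26, limma, adjusted p = 0.73). The mean of 5 interferon response genes lay between 6.75 and 7.23 in old and between 6.43 and 6.73 in young GFP-positive samples, with 0 of 5 past the age test (limma; 2 were higher at an unadjusted p under 0.05), and its part in these values was not tested.

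Some of the 33 pathway genes passed in the sort, a smaller share than the 17% of all genes that did. At an unadjusted p under 0.05 (limma), 12 of the 33 were lower and 2 higher, where 14.2% and 16.1% of all genes were. In 13 of the 33 (39.4%) every young GFP-positive value lay below every young GFP-negative value, where 15% of all genes did so. In 1 gene all lay above, where 23.9% of all genes did so. Psmb8 was lower in young GFP-positive than in young GFP-negative samples by a difference of -1.05 (limma, adjusted p = 0.00942), with 6.12, 6.46 and 6.35 in young GFP-positive and 7.92, 7.00 and 7.16 in young GFP-negative samples. Sqstm1, a receptor that carries ubiquitinated cargo, was lower by a difference of -0.68 (limma, adjusted p = 0.0338), with 8.65, 8.80 and 8.11 in young GFP-positive and 9.44, 9.21 and 8.93 in young GFP-negative samples. Nfyc, a subunit of the factor that binds the CCAAT box, was higher by 0.69 (limma, adjusted p = 0.0492), with 8.90, 9.58 and 8.72 in young GFP-positive and 8.36, 8.32 and 8.46 in young GFP-negative samples. The other subunits of that factor, Nfya and Nfyb, went the other way without passing. Their differences were -0.37 and -0.46 (limma, adjusted p = 0.0653 and 0.145), with young GFP-positive values wholly below young GFP-negative values. Psmb9 differed by -0.84 without passing (limma, adjusted p = 0.0744). The 10 microglia genes had means between 5.93 and 6.62 in young GFP-positive and between 9.33 and 9.91 in young GFP-negative samples, and their part in the sort differences was not tested.

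The age pattern was set beside 2 other large complexes of bright housekeeping genes. The 59 cytosolic ribosomal protein genes had a median age difference of -0.42, with 17 (28.8%) wholly below and 0 past the test (limma; at an unadjusted p under 0.05, 33 were lower and 1 higher). The 36 subunits of respiratory complex I had a median of -0.34, with 7 (19.4%) wholly below and 0 past the test (limma; at an unadjusted p under 0.05, 16 were lower and 0 higher). The proteasome median of -0.35 lay near both, while its share of 30.4% lay near the ribosomal share and above that of complex I. By particle, the core had a median of -0.49 with 52.9% wholly below, and the regulatory particle -0.25 with 25%. In the sort the 3 groups had medians of -0.17 for the proteasome, -0.53 for ribosomal proteins and 0.00 for complex I, with 0 of 46, 22 of 59 (all lower) and 1 of 36 (higher) past the test. Differences between these groups of genes were not tested. Among markers of other cell types, 0 passed the age test, but the median age difference was -0.51 for 8 mature oligodendrocyte genes, -0.82 for 4 immature neuron genes and -0.74 for 6 choroid plexus genes (limma; at an unadjusted p under 0.05, 3, 1 and 0 of them were lower). Sample means of the oligodendrocyte list ran between 7.65 and 7.76 in old and 7.71 and 8.68 in young GFP-positive samples, those of the immature neuron list between 6.57 and 6.68 in old and 6.73 and 8.83 in young GFP-positive samples, and those of the choroid plexus list between 5.58 and 5.92 in old and 5.57 and 8.43 in young GFP-positive samples. Their part in the proteasome values was not tested.

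**Figure D4:**
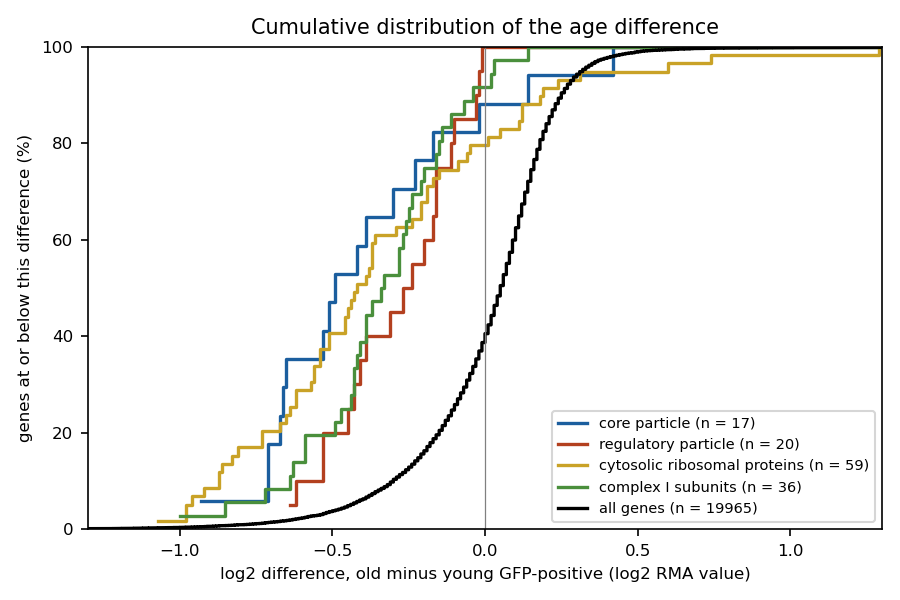
Cumulative share of genes (%) at or below each log2 difference, old minus young GFP-positive, for the core particle, the regulatory particle, cytosolic ribosomal proteins, complex I and all 19965 genes. The curves of the 4 gene groups lie left of that of all genes, with medians of -0.49, -0.25, -0.42 and -0.34 against 0.05.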

How the data were processed

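Expression was measured on 10 arrays, 1 per sample. The deposited table holds log2 values that the authors obtained by RMA, per the submitters' processing notes, with probes regrouped by RefSeq transcript of mm9, per the series description. RMA sets all arrays to 1 distribution, so a shift of all genes is removed, and changes of dim genes are understated. The table has no background level, and the number of arrays limits precision. Per the series description, the authors removed 1 array from a young mouse (which one is not stated in the labels), and the young mice were 5 to 7 months old, while titles give 4 months for 1 sample in each young fraction. The titles were followed.

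Of 31672 probe sets, 24590 matched 1 symbol in a RefSeq gene table (assembly GRCm38.p6, used for names) and 7082 none. For 3010 genes with several probe sets the one with the highest mean was kept, which left 19965 genes, all tested without a filter on low values. Of 47 RefSeq symbols that fit the name rule, 46 were measured. In 4 of them (Psmd2, Psmd10, Psme2, Psmg4) there were 2 probe sets, whose age differences were within 0.07 of each other. The table lists 6 Psm pseudogenes, and near-identical copies cannot be told apart.

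Groups came from the titles. All 10 samples were fitted in 1 model of 3 group means with lmFit and eBayes in limma 3.58.1 (R 4.3.3), two-sided, with Benjamini-Hochberg adjustment over all 19965 genes and a threshold of 0.05, with 7 residual and 4.07 prior degrees of freedom. The script was tested on simulated data. Significance Analysis of Microarrays, named by the authors, was not run. Plots used Python 3.11.15 and matplotlib 3.10.9.

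Full values are given for the catalytic genes Psmb5, Psmb6, Psmb7 and Psmb10, for Psme1 and Psme2, for members past the test, and otherwise for the gene of smallest p in each sub-complex and comparison. From the pathway list, genes past the test and Psmb8, Psmb9, Nfe2l1 and Nfe2l2 are named, except for 1 result that is not reported here. Other genes were named after their values were seen. The members, lists and rules were chosen with earlier results of these data known, and the ribosomal and complex I groups and promoter motifs were added later. Alternatives left out each sample, changed the genes tested, the probe set rule, the centring, the array weights, the variance prior, the groups in the fit and the replicate block.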

Additional observations from a re-analysis of the deposited data

Results flagged for a closer look

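In 3 genes, 1 of the 4 old GFP-positive samples was far below the others, with a Dixon ratio (gap over whole range) above the 95% critical value for 4 samples. Psma4, an alpha subunit, was 8.20 in old replicate 1, with the others between 8.72 and 8.82 (ratio 0.834). Psmb5, the chymotrypsin-like subunit, was 7.20 in old replicate 2, with the others between 7.58 and 7.63 (ratio 0.874). Psmc5, an ATPase, was 9.92 in old replicate 3, with the others between 10.31 and 10.36 (ratio 0.885). Each concerned a different sample, and chance gives such a gap in about 1 of 20 groups.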

How the results depend on the processing

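The count of members past the age test was 0 under every alternative run, and the core and regulatory medians with age stayed negative, between -0.60 and -0.41 and between -0.29 and -0.20 when single samples were left out. All genes past the age test numbered 0 to 20 over the alternatives, with 4 higher and 16 lower under array weights. Members lower in young GFP-positive samples numbered 3 with array weights (Psmc3, Psmc4 and Psmd6) and 0 to 1 with single samples left out, and members higher numbered 0 to 1 (Psmg1 without young GFP-positive replicate 3). The core median in the sort was -0.07 with array weights, -0.13 without both young samples of replicate 1, and -0.33 to -0.08 with single samples left out, and the regulatory median in the sort was -0.23 to -0.10 with single samples left out. The cause of these moves was not tested. Members with every old value below every young one numbered 15 to 24 with single samples left out, 24 without young GFP-positive replicate 3 (fewer samples separate more easily) and 16 with centring. Members with every young GFP-positive value below every young GFP-negative value numbered 12 to 18 with single samples left out and 10 with centring. Settings for these counts were chosen after seeing the data. The deviations of young samples that share a number correlated with r = 0.124, 0.0211 and 0.191 for numbers 1, 2 and 3. Samples numbered 1 and 3 correlated best with their own number, and those numbered 2 did not. These correlations cannot decide whether the samples numbered 1 or 3 shared a mouse. The titles do not state it, and the main fit did not take the samples as paired. With the replicate number as a block (replicate block, young samples), 0 members passed and the core median in the sort was -0.26, while 1247 genes were higher and 1577 lower, against 1533 and 1857 without it. This block joins the samples numbered 2, which came from mice of different ages. Single differences were followed through the alternatives for 15 of the members only, none of which passed with all samples. In these 15 members, 3 small differences turned sign with samples left out. Psmb10 with age (0.14) turned to -0.11 without young GFP-positive replicate 1, alone or with its GFP-negative counterpart. Psmf1 with age (0.05) turned to -0.03 without old replicate 1. Psmb5 in the sort (-0.01) turned to 0.08 without young GFP-positive replicate 2 and 0.09 without young GFP-negative replicate 3. The signs of the other members were not followed gene by gene. With single samples left out, 38 to 42 of the 46 age differences were negative. The number of arrays limits the precision of every value, and no background level was at hand to say which dim genes were detected.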
